A study of Mus musculus with 14 samples.

Results

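Reactive oxygen species in the heart come in part from the NADPH oxidases, enzymes that pass electrons from NADPH to oxygen, and are removed by superoxide dismutases, catalase and glutathione peroxidases. Nox4 and Cybb encode the oxidase catalytic proteins best known in the heart, the first active without cytosolic partners and the second the phagocyte oxidase, gp91phox. Nnt encodes the transhydrogenase of the mitochondrial inner membrane, which makes NADPH from NADH, and that NADPH feeds the glutathione and thioredoxin systems which clear hydrogen peroxide. The 10 genes described here were Nox4, Cybb, Cyba, Ncf1, Nnt, Sod2, Sod3, Cat, Gpx1 and Gpx3, out of 19937 genes named on the array. They were chosen by name, with levels in these same 14 arrays already known, and the probe set of a gene was selected on its mean over the 14 arrays, the highest among those with a single gene symbol. Each of the 10 genes had exactly 1 such probe set, so the levels made no choice among probe sets, and all 10 were measured and tested, with no filter on low values. Counts among them describe these genes and are therefore not evidence for the group.

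RNA of the left ventricle of male mice was hybridised to Affymetrix mouse gene arrays, 1 mouse per array, in 4 groups: CXCR5-/- mice after aortic banding (CXCR5-/- AB, n = 4), WT mice after aortic banding (WT AB, n = 4), CXCR5-/- mice after sham operation (CXCR5-/- Sham, n = 3) and WT mice after sham operation (WT Sham, n = 3). Banding (AB) is a ligature around the ascending aorta that loads the left ventricle with pressure, Sham mice were operated without the ligature, and hearts were taken 3 weeks later. In CXCR5-/- mice the coding part of the gene for this chemokine receptor was replaced in all cells by a neomycin resistance gene in embryonic stem cells of another mouse strain (line D3), and the line was backcrossed to C57BL/6 for 8 generations. WT mice were C57BL/6 from a commercial breeder, so the comparison of genotypes is also one of a bred line with bought mice. No age of the mice was stated in these sources. All levels of single genes below are log2 values per probe set from robust multi-array averaging (RMA), and a difference of 1 is a factor of 2. Levels of different genes were not ranked against each other, since each depends on its probes. The summed level of a marker list is the log2 of its levels added on the linear scale, so its brightest probe sets weigh most.

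The probe set of the targeted gene, Cxcr5, read 3.97 to 4.47 on CXCR5-/- AB arrays against 3.03 to 3.30 on WT AB arrays, and 3.85 to 4.11 on CXCR5-/- Sham arrays against 3.23 to 3.24 on WT Sham arrays. It was higher on the arrays labelled CXCR5-/- and whether it lies in the replaced part of the gene is not known, so it does not check the labels and directions between genotypes rest on the labels alone. Ventricular cardiomyocyte markers had a summed level of 15.5 to 15.6 on AB arrays and 15.7 to 15.8 on Sham arrays, so the defining markers of the labelled tissue were present on all arrays. The summed level of 3 atrial markers reached 11.3 on CXCR5-/- Sham arrays and 10.8 on WT Sham arrays, against at most 10.3 on CXCR5-/- AB and 10.2 on WT AB arrays, and 3 Sham arrays (CXCR5-/- Sham 1 and 2, WT Sham 1) carried these high levels. The summed level of 3 liver plasma protein markers ran from 6.4 to 10.2 on CXCR5-/- AB and 6.7 to 8.5 on WT AB arrays. On Sham arrays it ran from 6.4 to 6.6 in CXCR5-/- and from 6.3 to 9.6 in WT. Its bearing on the 10 genes was not tested. Levels within the AB groups also split by array number, in a division chosen after seeing the data. For some genes AB arrays 1 and 2 did not overlap AB arrays 3 and 4, on the same side in both genotypes. This held for 20.9% of all genes and for 6 of these 10. The share that would arise by chance was not worked out. Neither the labels nor the methods give those numbers a meaning.

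The sequence around the transcription start of 8 of the 10 genes was found in the RefSeq promoter table (GRCm38.p6, windows of 300 bases from 250 before to 50 after the start), and those of Nox4, Cybb and Gpx1 are shown because Nox4 and Cybb are the oxidase catalytic subunit genes described here and Gpx1 is the gene that ran most opposite to Nnt among the 10. Capitals mark the GC box (GGGCGG) and the PU.1 core (GAGGAA), searched on both strands, so that CCGCCC and TTCCTC are their other-strand forms. These motifs do not overlap each other in the windows shown. The windows are given 5′ to 3′ on the strand of the gene, Nox4 at chr7:87246399-87246698 on the plus strand, Cybb at chrX:9469275-9469574 on the minus strand and Gpx1 at chr9:108338830-108339129 on the plus strand, and each ends 50 bases into the transcript.
Nox4: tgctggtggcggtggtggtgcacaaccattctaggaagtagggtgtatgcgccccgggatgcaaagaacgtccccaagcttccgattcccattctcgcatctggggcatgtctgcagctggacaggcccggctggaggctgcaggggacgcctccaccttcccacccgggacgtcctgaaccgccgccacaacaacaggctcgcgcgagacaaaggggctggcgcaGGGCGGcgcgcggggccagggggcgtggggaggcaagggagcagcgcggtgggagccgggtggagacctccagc
Cybb: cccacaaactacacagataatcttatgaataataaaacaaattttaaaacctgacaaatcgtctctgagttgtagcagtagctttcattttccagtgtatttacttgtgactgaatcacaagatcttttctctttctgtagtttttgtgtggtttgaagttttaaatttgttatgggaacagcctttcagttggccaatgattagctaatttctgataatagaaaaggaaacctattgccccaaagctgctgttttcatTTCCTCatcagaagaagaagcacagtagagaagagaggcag
Gpx1: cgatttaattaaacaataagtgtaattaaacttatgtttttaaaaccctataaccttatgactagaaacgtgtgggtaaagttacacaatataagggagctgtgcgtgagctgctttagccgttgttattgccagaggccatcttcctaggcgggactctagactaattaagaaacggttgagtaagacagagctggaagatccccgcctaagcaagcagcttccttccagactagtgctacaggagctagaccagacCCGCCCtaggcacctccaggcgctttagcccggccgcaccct
Nox4 had the highest share of G and C of the 8 windows, 68.3%, and Cybb the lowest, 35.3%, against a median of 52.7% over 32851 windows. A GC box was found in 7 of the 8 windows, all but Cybb, and in 35.7% of all windows. The PU.1 core was found in Cybb, Sod2, Cat and Gpx3 and in 28.3% of all windows. The antioxidant response element core (TGACNNNGC) and the letters TATAAA were in none of the 8, and in 12.4% and 13.6% of all windows. These are matches of letters in short windows, and no binding was measured.

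After AB, Nox4, Ncf1, Gpx1 and Gpx3 were higher and Nnt was lower than after Sham in either genotype. With limma and an adjusted p under 0.05 over all genes, 5 of the 10 genes were higher and 1 lower in CXCR5-/- AB than in CXCR5-/- Sham hearts, where 8.28% of all genes were higher and 5.86% lower. In WT AB against WT Sham hearts 5 were higher and 1 lower, where 5.1% of all genes were higher and 4.22% lower. Nox4, Ncf1, Nnt, Gpx1 and Gpx3 passed in both genotypes, Cybb in CXCR5-/- and Sod3 in WT. Over the mean of both genotypes, which uses all 14 arrays, 7 were higher and 2 lower, all but Cat, where 12.3% of all genes were higher and 10.4% lower. Groups did not overlap for all 10 genes between CXCR5-/- AB and CXCR5-/- Sham (25.4% of all genes) and for 6 of the 10 between WT AB and WT Sham (17.1% of all genes). The median difference over the 10 genes was 0.44 in CXCR5-/- and 0.42 in WT, against -0.01 and 0.01 over all genes.

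**Figure D1:**
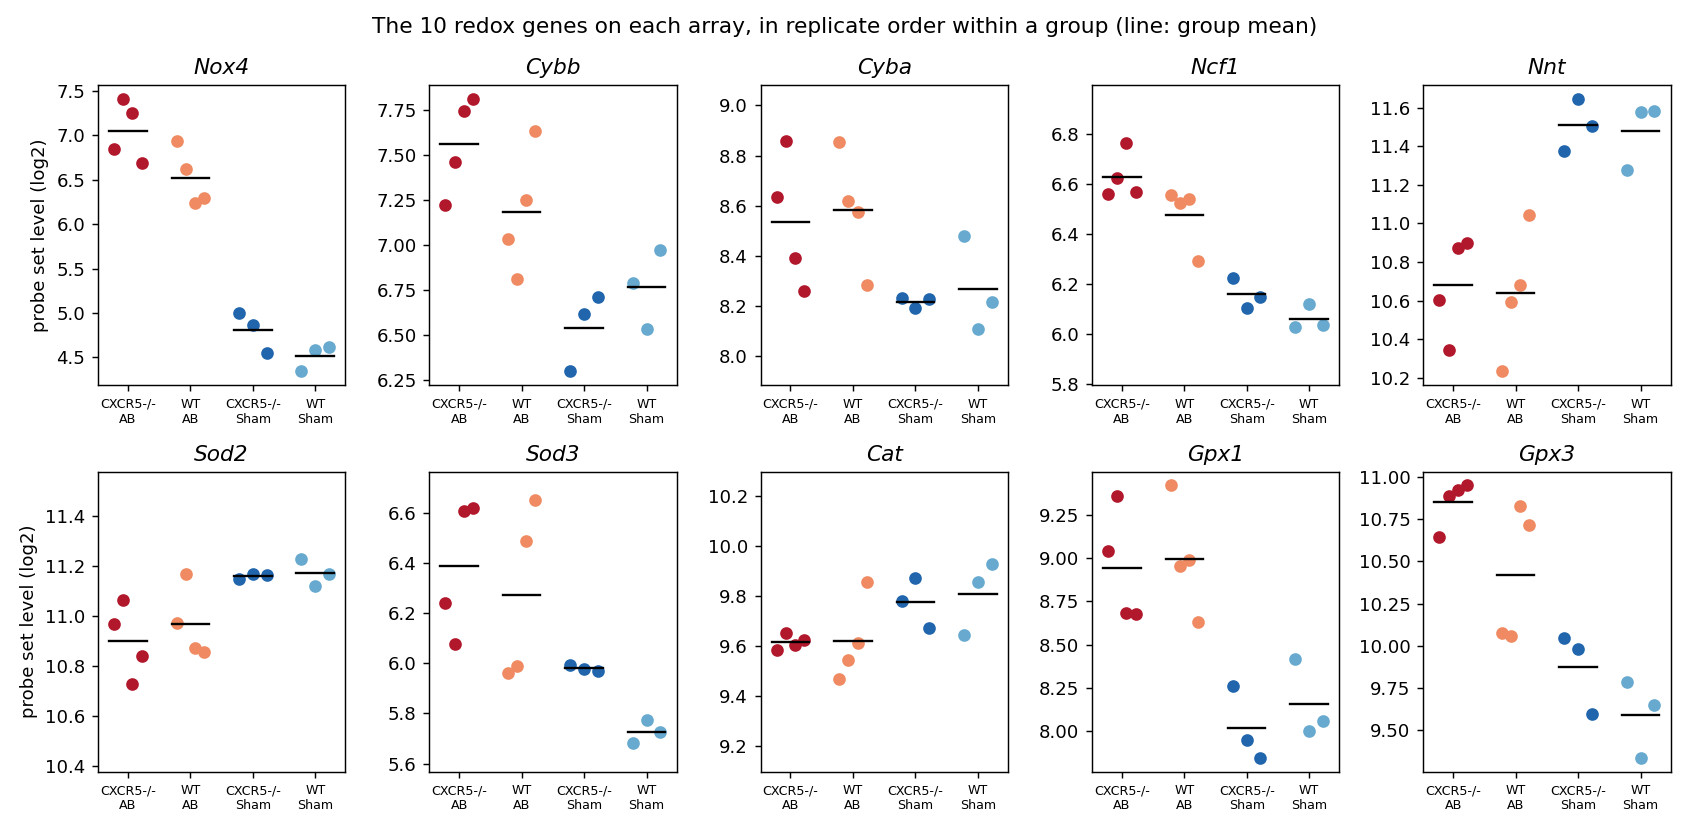
Log2 level of the 10 genes (1 panel each) on every array, by group, with points in replicate order and a line at the group mean; each panel has its own level axis, which does not start at 0. Nox4 on all 8 AB arrays, at 6.24 to 7.41, sits above all 6 Sham arrays, at 4.34 to 5.0, and Nnt on all AB arrays sits below all Sham arrays.

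Nox4 showed the greatest difference of the 10. Its levels were 6.84, 7.41, 7.26 and 6.69 in CXCR5-/- AB hearts and 6.93, 6.62, 6.24 and 6.30 in WT AB hearts. They were 5.0, 4.87 and 4.55 in CXCR5-/- Sham hearts and 4.34, 4.58 and 4.62 in WT Sham hearts. Every AB heart lay more than a log2 unit above every Sham heart. The difference was 2.25 in CXCR5-/- (SE 0.18, adjusted p = 4.34e-07 with limma), a 4.75-fold higher level, and 2.01 in WT (SE 0.18, adjusted p = 2.87e-06), a 4.03-fold higher level. Of 14 fits without 1 array, all kept both calls, with differences of 2.12 to 2.37 in CXCR5-/- and 1.87 to 2.10 in WT. Group means ran, from high to low, 7.05 ± 0.34 in CXCR5-/- AB, 6.52 ± 0.32 in WT AB, 4.80 ± 0.23 in CXCR5-/- Sham and 4.51 ± 0.15 in WT Sham (SD). The neighbours in that order other than WT AB and CXCR5-/- Sham overlapped in their single values.

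Cybb encodes gp91phox, the catalytic protein of the oxidase of macrophages and neutrophils. Its levels were 7.22, 7.46, 7.74 and 7.81 in CXCR5-/- AB hearts and 7.03, 6.81, 7.25 and 7.63 in WT AB hearts. They were 6.30, 6.62 and 6.71 in CXCR5-/- Sham hearts and 6.79, 6.53 and 6.97 in WT Sham hearts. The CXCR5-/- groups were apart, whereas WT AB array 2 lay among the WT Sham arrays. The difference was 1.02 in CXCR5-/- (SE 0.18, adjusted p = 0.000787), a 2.03-fold higher level, and 0.42 in WT (SE 0.18, adjusted p = 0.18 with limma, not past the threshold). The test of the difference between these responses gave 0.60 (SE 0.25, unadjusted p = 0.0284, adjusted p = 1), which did not pass. Without the 3 Sham arrays rich in atrial transcripts, which leaves 1 CXCR5-/- Sham array whose spread is taken from the other groups, Cybb in CXCR5-/- no longer passed (0.85, adjusted p = 0.122).

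Cyba encodes p22phox, the membrane partner that both gp91phox and Nox4 need, and Ncf1 encodes p47phox, the organizer that reaches gp91phox on activation. Ncf1 lay at 6.56, 6.62, 6.77 and 6.57 in CXCR5-/- AB hearts and at 6.56, 6.53, 6.54 and 6.29 in WT AB hearts. It lay at 6.23, 6.11 and 6.15 in CXCR5-/- Sham hearts and at 6.03, 6.12 and 6.04 in WT Sham hearts. All 8 AB arrays were above all 6 Sham arrays. The difference for Ncf1 was 0.47 in CXCR5-/- (SE 0.09, adjusted p = 0.0017) and 0.42 in WT (SE 0.09, adjusted p = 0.0066). In CXCR5-/- hearts it did not pass without the 3 Sham arrays named above (0.48, adjusted p = 0.0746). Cyba spanned 8.26 to 8.86 in CXCR5-/- AB hearts, 8.28 to 8.86 in WT AB hearts, 8.19 to 8.23 in CXCR5-/- Sham hearts and 8.11 to 8.48 in WT Sham hearts. The difference for Cyba was 0.32 in CXCR5-/- (adjusted p = 0.169) and 0.31 in WT (adjusted p = 0.214), and it passed over the mean of genotypes (0.32, adjusted p = 0.0309) but not without any 1 of 9 arrays (adjusted p up to 0.0922).

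Among the 6 catalytic subunit genes on the array (Nox1, Nox3, Nox4, Cybb, Duox1 and Duox2), Nox4 and Cybb alone passed over the mean of genotypes, and Nox1 had a difference of -0.04 (adjusted p = 0.78). Mean levels of Nox1, Nox3, Duox1 and Duox2 lay at percentiles 19.0, 25.9, 40.7 and 29.5 of all probe sets. At such low levels a lack of change cannot be told apart from a lack of signal. Of 12 measured partner and organizer genes, 6 were higher and none lower over the mean of genotypes, against 12.3% and 10.4% of all genes. Beside Cyba and Ncf1, these were Rac2, the small GTPase of the phagocyte oxidase (0.49, adjusted p = 0.000449), Cyria (0.43, adjusted p = 0.000186), Ncf4, which encodes p40phox (0.29, adjusted p = 0.00321), and Cybc1, the chaperone of gp91phox (0.24, adjusted p = 0.018). Cyria is known for a product that binds active Rac1 and acts on actin, and not as a part of the oxidase, and without it 5 of 11 genes were higher. Of them Rac2 and Cyria passed in each genotype, and Ncf4 passed in CXCR5-/- (0.34, adjusted p = 0.0193) but not in WT (0.24, adjusted p = 0.122), a difference between genotypes that was not past the threshold for any gene.

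Macrophage markers were also higher after AB. Of all genes, 8.28% were higher in CXCR5-/- AB and 5.1% in WT AB hearts, and over the mean of genotypes 12.3% were higher and 10.4% lower. Of 14 macrophage markers, 11 were higher in CXCR5-/- AB and 8 in WT AB hearts than in the Sham hearts of the same genotype, and over the mean of genotypes 12 were higher and 1, Cd163, lower. Their summed level was 11.9 to 12.3 on CXCR5-/- AB arrays, 11.8 to 12.1 on WT AB arrays, 11.1 to 11.3 on CXCR5-/- Sham arrays and 11.3 to 11.5 on WT Sham arrays, without overlap between AB and Sham. Within the AB groups Cybb and this sum ranked the arrays alike only in part. WT AB arrays 2, 1 and 3 rose in Cybb (6.81, 7.03 and 7.25) and in the sum (11.9, 12.0 and 12.1). By the mean log2 level of the 14 markers, which weighs them equally, WT AB array 1 (7.61) was above WT AB array 3 (7.59). WT AB array 4 had the highest Cybb of its group (7.63) and the lowest sum (11.8). CXCR5-/- AB array 2, with the highest sum (12.3), had a lower Cybb (7.46) than arrays 3 and 4. Of these markers Fcer1g, an Fc receptor chain, was higher by 1.05 (adjusted p = 1.43e-06) and Cd68, a lysosomal protein, by 0.97 (adjusted p = 1.85e-06) over the mean of genotypes. Neutrophil markers had 2 of 8 higher over the mean of genotypes, against 12.3% of all genes. These were Csf3r, by 0.42 (adjusted p = 0.00275 with limma), and Ly6g, by 0.27 (adjusted p = 0.014). Both were dim, with mean levels at percentiles 37.6 and 19.6 of all probe sets. Fibroblast markers had 9 of 10 higher, among them Postn, the matrix protein periostin, by 2.87 (adjusted p = 1.9e-12), with a summed level of 13.2 to 13.4 on CXCR5-/- AB, 12.9 to 13.4 on WT AB, 12.2 to 12.4 on CXCR5-/- Sham and 12.3 on WT Sham arrays. In whole ventricle a change in the number of cells of a type and a change of RNA per cell cannot be told apart, and the part of these cells in the oxidase levels was not tested.

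**Figure D2:**
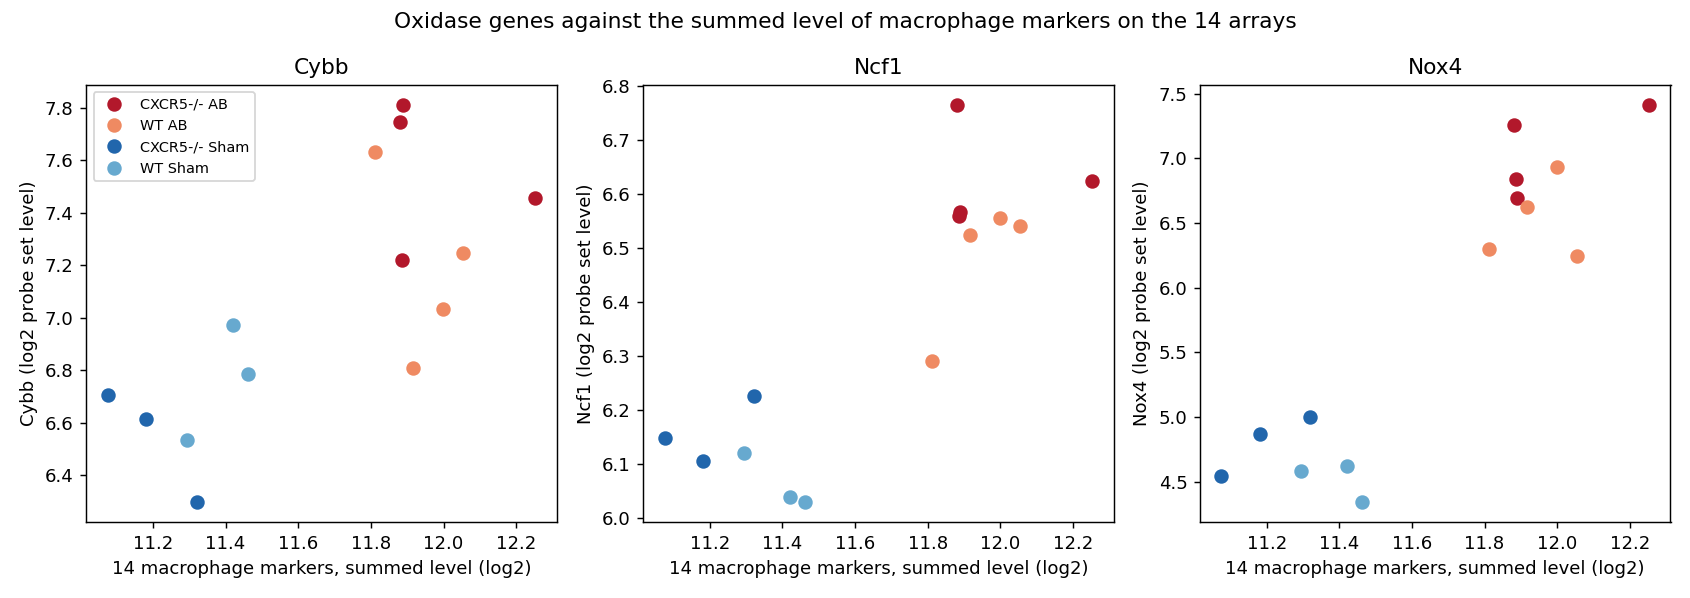
Log2 levels of Cybb, Ncf1 and Nox4 (vertical axes) against the log2 summed level of 14 macrophage markers (horizontal axis) on the 14 arrays, coloured by group. The summed level is 11.8 or more on all AB arrays and 11.5 or less on all Sham arrays, while Cybb on WT AB array 2, at 6.81, lies within the range of the WT Sham arrays.

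Nnt was lower after AB in both genotypes. Its levels were 10.60, 10.34, 10.87 and 10.90 in CXCR5-/- AB hearts and 10.23, 10.59, 10.68 and 11.04 in WT AB hearts. They were 11.38, 11.65 and 11.51 in CXCR5-/- Sham hearts and 11.28, 11.57 and 11.58 in WT Sham hearts. Every AB heart was below every Sham heart. The difference was -0.83 in CXCR5-/- (SE 0.16, adjusted p = 0.00202), which is 56.2% of the Sham level, and -0.84 in WT (SE 0.16, adjusted p = 0.003), which is 55.8% of it. Leaving out 1 array at a time gave -0.90 to -0.72 in CXCR5-/- and -0.98 to -0.71 in WT, with the call kept in each of 14 fits. Without the 3 Sham arrays rich in atrial transcripts the difference in CXCR5-/- was -0.83, and with the lone Sham array it did not pass (adjusted p = 0.0923). The C57BL/6J substrain is known for a deletion in Nnt. Whether either line carries it, or the probe set lies in it, is not known, so the levels cannot tell. They did not separate the genotypes: the difference of CXCR5-/- from WT was 0.04 after AB (SE 0.15) and 0.03 after Sham (SE 0.18).

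The other measured genes of the list for NADPH supply were mostly lower as well, and G6pdx of that list was not measured. Of 16 measured genes of this list, Nnt included, 2 were higher and 10 lower over the mean of genotypes, with a median difference of -0.32 against -0.00 over all genes. Of all genes 12.3% were higher and 10.4% lower over that mean. Those lower included Nadk2, the mitochondrial NAD kinase (-0.82, adjusted p = 5.97e-07), Me3, a mitochondrial malic enzyme (-0.61, adjusted p = 4.92e-05), and Idh2, the mitochondrial NADP-dependent isocitrate dehydrogenase (-0.45, adjusted p = 3.24e-05). Nadk2 lay at 7.45 to 7.73 on CXCR5-/- AB arrays, 7.35 to 7.84 on WT AB arrays, 8.27 to 8.38 on CXCR5-/- Sham arrays and 8.42 to 8.51 on WT Sham arrays, with no overlap between AB and Sham. Mthfd2, a mitochondrial enzyme of folate metabolism, was higher (0.82, adjusted p = 1.15e-05). All 4 passed within each genotype. Ventricular cardiomyocyte markers moved in the same direction, with 6 of 10 lower and none higher over the mean of genotypes and a median of -0.20, among them Ryr2, the calcium release channel (-0.63, adjusted p = 6.47e-06), and the share of this in Nnt and its list was not tested.

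Glutathione peroxidases reduce hydrogen peroxide and lipid peroxides with glutathione, Gpx1 inside cells and Gpx3 as a secreted form. Gpx1 lay at 9.04, 9.36, 8.68 and 8.67 in CXCR5-/- AB hearts and at 9.42, 8.95, 8.99 and 8.63 in WT AB hearts. It lay at 8.26, 7.95 and 7.84 in CXCR5-/- Sham hearts and at 8.42, 8.0 and 8.06 in WT Sham hearts. All AB arrays were above all Sham arrays. The difference was 0.92 in CXCR5-/- (SE 0.18, adjusted p = 0.00222), a 1.89-fold higher level, and 0.84 in WT (SE 0.18, adjusted p = 0.00694), a 1.79-fold higher level.

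Gpx3 lay at 10.64, 10.88, 10.92 and 10.95 in CXCR5-/- AB hearts and at 10.07, 10.06, 10.83 and 10.72 in WT AB hearts. It lay at 10.05, 9.98 and 9.60 in CXCR5-/- Sham hearts and at 9.79, 9.34 and 9.65 in WT Sham hearts. WT AB hearts fell into a low pair, arrays 1 and 2, and a high pair, and the low pair was close to the highest CXCR5-/- Sham heart. The difference was 0.97 in CXCR5-/- (SE 0.18, adjusted p = 0.00118) and 0.83 in WT (SE 0.18, adjusted p = 0.00652), and the WT call was lost without WT Sham array 2 (0.70, adjusted p = 0.0533). Of 9 genes for catalase and glutathione peroxidases, 4 were higher and none lower over the mean of genotypes, against 12.3% and 10.4% of all genes. The further ones were Gpx8 (0.66, adjusted p = 0.00045) and Gpx7 (0.33, adjusted p = 0.0117), both peroxidases of the endoplasmic reticulum.

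Catalase, the peroxisomal enzyme that splits hydrogen peroxide, was the gene of the 10 that did not pass over the mean of genotypes. Cat lay at 9.58 to 9.65 in CXCR5-/- AB hearts, 9.47 to 9.86 in WT AB hearts, 9.67 to 9.87 in CXCR5-/- Sham hearts and 9.65 to 9.93 in WT Sham hearts. Its difference was -0.16 in CXCR5-/- (adjusted p = 0.362), -0.19 in WT (adjusted p = 0.305) and -0.18 over the mean (SE 0.07, adjusted p = 0.0939). Leaving out WT AB array 4 or WT Sham array 1 brought the mean past the threshold (-0.21 and -0.22, the lower adjusted p being 0.0252).

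Superoxide dismutases turn superoxide into hydrogen peroxide, Sod2 in the mitochondrial matrix and Sod3 outside cells. They differed in direction. Sod2 spanned 10.73 to 11.06 in CXCR5-/- AB hearts, 10.86 to 11.17 in WT AB hearts, 11.15 to 11.17 in CXCR5-/- Sham hearts and 11.12 to 11.23 in WT Sham hearts. It did not pass within either genotype (-0.26, adjusted p = 0.0957 in CXCR5-/-, and -0.20, adjusted p = 0.246 in WT), and it was lower over the mean (-0.23, SE 0.07, adjusted p = 0.022). Sod3 lay at 6.24, 6.08, 6.61 and 6.62 in CXCR5-/- AB hearts and at 5.96, 5.99, 6.49 and 6.65 in WT AB hearts. It lay at 6.00, 5.98 and 5.97 in CXCR5-/- Sham hearts and at 5.68, 5.77 and 5.73 in WT Sham hearts. Arrays 1 and 2 of either AB group were nearer to the Sham values than arrays 3 and 4. The difference for Sod3 was 0.41 in CXCR5-/- (SE 0.16, adjusted p = 0.107), 0.55 in WT (SE 0.16, adjusted p = 0.0386) and 0.48 over the mean (SE 0.11, adjusted p = 0.00462), and the WT call was lost without any 1 of 8 arrays (adjusted p up to 0.119). Without the 3 Sham arrays rich in atrial transcripts, which leaves 1 CXCR5-/- Sham array, neither Sod2 nor Sod3 kept its call over the mean. The differences there were -0.22 for Sod2 and 0.47 for Sod3. Sod1, the cytosolic enzyme, had -0.08 over the mean (adjusted p = 0.62).

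**Figure D3:**
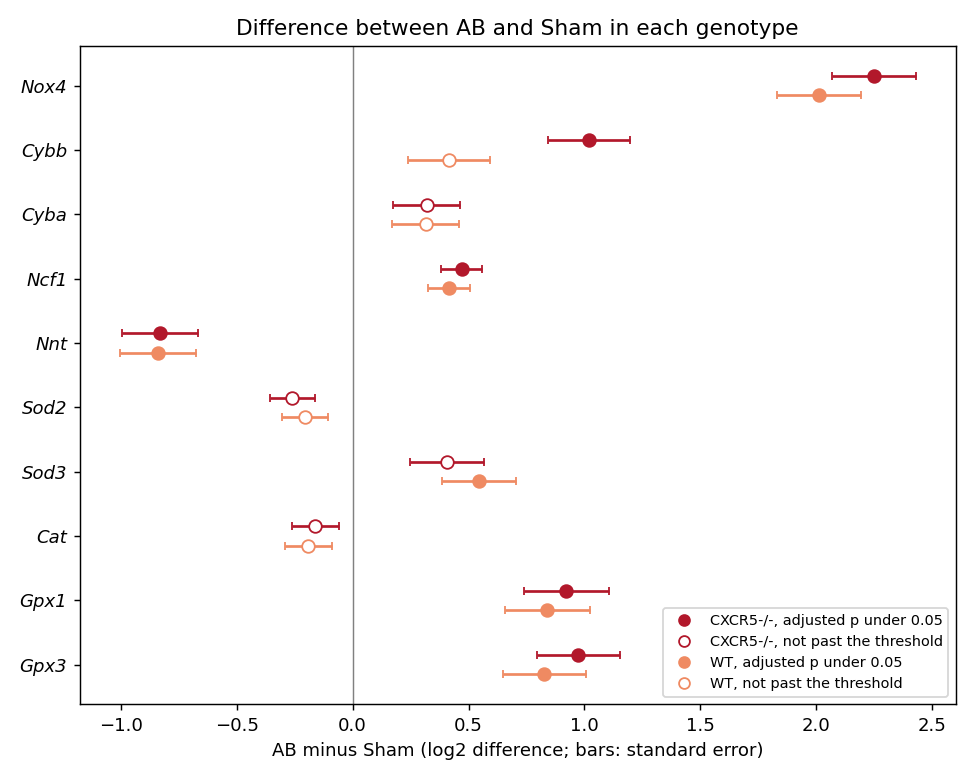
Log2 difference of AB from Sham (horizontal axis) for each of the 10 genes in CXCR5-/- (upper point) and WT (lower point), with bars of 1 standard error from limma; filled points have an adjusted p under 0.05. Nox4 stands at 2.25 and 2.01 and Nnt at -0.83 and -0.84, and the 2 genotypes' points lie farthest apart for Cybb, at 1.02 and 0.42.

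The other redox lists are read against the 12.3% of all genes that were higher and the 10.4% that were lower over the mean of genotypes. Of 11 genes of glutathione synthesis and recycling, 1 was higher over the mean of genotypes, Glrx2, a mitochondrial glutaredoxin (0.25, adjusted p = 0.0318), and none lower. Of 11 thioredoxins and peroxiredoxins, 1 was higher, Prdx4 of the endoplasmic reticulum (0.61, adjusted p = 0.00193), and 2 were lower, Txnrd2, the mitochondrial thioredoxin reductase (-0.28, adjusted p = 0.00624), and Txnrd3 (-0.25, adjusted p = 0.0177). Of 18 glutathione transferases 6 (33.3%) were lower and none higher, led by Gstk1 (-0.88, adjusted p = 4.29e-06), Gstm7 (-0.49, adjusted p = 9.76e-05), Gstm1 (-0.29, adjusted p = 0.00353) and Gstt1 (-0.34, adjusted p = 0.005). These transferases couple glutathione to reactive compounds. Genes of one such family share sequence, so a probe set may read more than its own gene.

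In the list of the Nrf2 pathway and oxidant response, 3 of 17 genes (17.6%) were higher and 5 (29.4%) lower over the mean of genotypes, against 12.3% and 10.4% of all genes. Mafk (0.49, adjusted p = 0.0003) and Maff (0.56, adjusted p = 0.00213), small Maf proteins that pair with Nrf2, were higher. Ucp3, a mitochondrial carrier of muscle (-1.39, adjusted p = 9.58e-05), and Sesn1, a sestrin (-0.63, adjusted p = 0.000121), were lower. Of 10 genes for other oxidant sources 2 (20%) were higher and 3 (30%) lower. Of the monoamine oxidases of the outer mitochondrial membrane, which release hydrogen peroxide, Maob was lower (-0.97, adjusted p = 6.03e-07) and Maoa higher (0.24, adjusted p = 0.0209). Aox1, aldehyde oxidase (-0.64, adjusted p = 2.62e-05), and Xdh, xanthine dehydrogenase (-0.51, adjusted p = 0.0173), were lower.

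**Figure D4:**
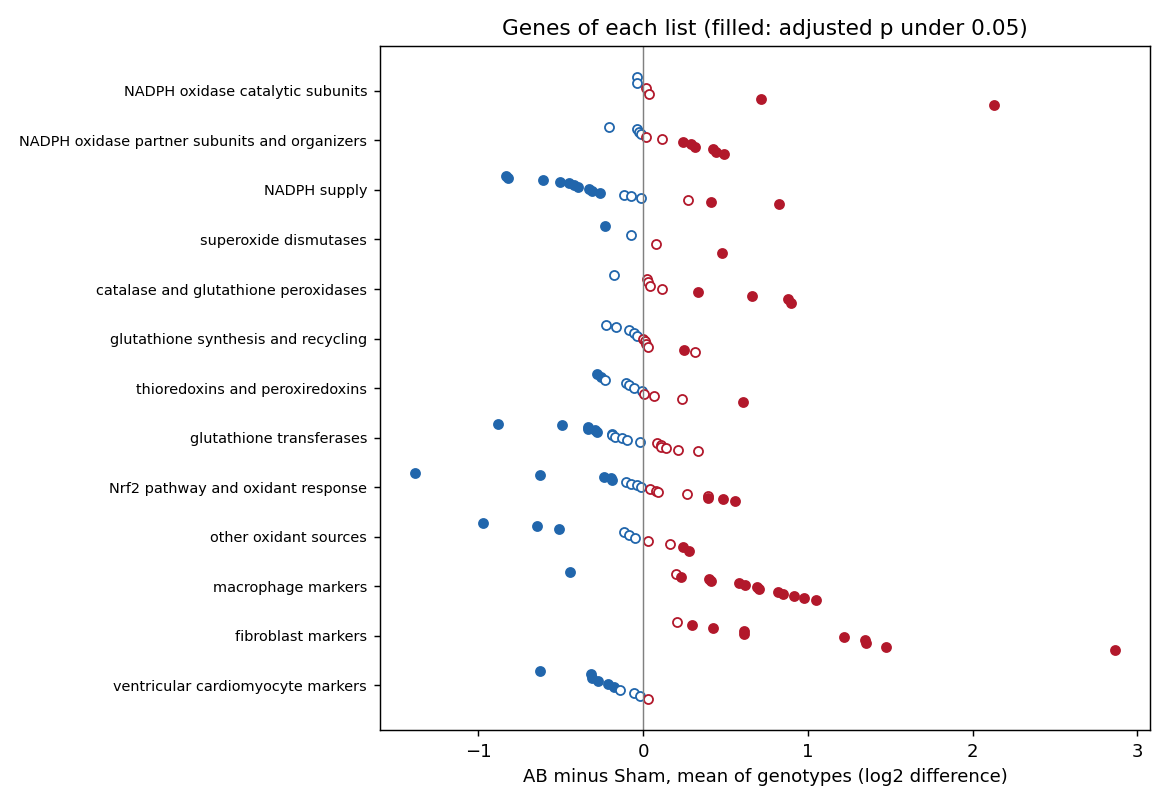
Log2 difference of AB from Sham over the mean of genotypes (horizontal axis) for each measured gene of 10 redox lists and 3 lists of cell type markers; filled points have an adjusted p under 0.05 with limma, red is higher and blue lower. Catalytic oxidase subunits show 2 filled points, Cybb at 0.72 and Nox4 at 2.13, and NADPH supply shows 10 filled points on the lower side and 2 on the higher.

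Between the genotypes none of the 10 genes passed. In the difference of the AB responses 0 of 10 passed with limma, as did 0% of all genes, and 1 of the 10, Cybb, had an unadjusted p under 0.05. The difference for Nox4 was 0.24 (SE 0.26) and for Nnt 0.01 (SE 0.23), and over the 10 genes it ran from -0.14 to 0.60. Between CXCR5-/- AB and WT AB hearts 0 of 10 passed, against 0.0451% of all genes, and significance analysis of microarrays also called 0 of them. Nox4 (0.53, SE 0.17, adjusted p = 0.49), Gpx3 (0.43, SE 0.17, adjusted p = 0.698) and Cybb (0.38, SE 0.16, adjusted p = 0.788) had an unadjusted p under 0.05, each higher in CXCR5-/- AB. All 3 overlapped between the genotypes. Ncf1 alone of the 10 did not overlap (3.12% of all genes), with its lowest CXCR5-/- AB and its highest WT AB value both at 6.56, and its difference was 0.15 (SE 0.08, adjusted p = 0.887). With the replicate number as a block, 11 genes of the array were higher and 10 lower in CXCR5-/- AB. Without the block these were 5 and 4, and 0 of the 10 redox genes passed in either fit. Same-numbered AB arrays of the genotypes deviated together with an r of 0.125 to 0.22 across genes. Pairs with different numbers reached 0.456 and 0.419, so the block is not a known pairing.

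Between CXCR5-/- Sham and WT Sham hearts 0 of the 10 passed with limma (0.0401% of all genes) or with significance analysis of microarrays, and 0 had an unadjusted p under 0.05. Their differences ran from -0.22 for Cybb to 0.29 for Nox4. Sod3 alone did not overlap (6.85% of all genes), with 3 CXCR5-/- Sham hearts above 3 WT Sham hearts (0.25, SE 0.17, adjusted p = 1). Over the mean of operations 0 of the 10 passed, against 0.0953% of all genes. There Nox4 (0.41, SE 0.13, adjusted p = 0.675) and Gpx3 (0.36, SE 0.13, adjusted p = 0.866) had an unadjusted p under 0.05. The AB and Sham groups are shared between these comparisons, so they are not separate evidence.

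Several of the 10 genes varied together, in the same or in opposite directions, from heart to heart within groups. Over the 14 arrays Nnt and Gpx1 ran opposite to each other, with Pearson's r of -0.987, and Gpx1 ranked 19936 of 19937 genes by its r with Nnt. The arrays fall into AB and Sham clusters, so these values also carry the difference between the groups, and the deviations from group means are given beside them. Both are descriptions over arrays that share their processing. In deviations r was -0.954 for Nnt and Gpx1, -0.95 for Nnt and Cyba and 0.852 for Nnt and Sod3. WT AB array 1 had the lowest Nnt (10.23) and the highest Gpx1 (9.42), and WT AB array 4 the highest Nnt (11.04) and lowest Gpx1 (8.63) of the AB hearts. In deviations 173 genes had an r of at least 0.9 with Nnt and 281 an r of -0.9 or less, 2.28% of the other genes, whereas for Nox4 these were 1 and 3 genes, 0.0201%.

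The array numbers split these deviations. In both AB groups Cyba and Sod2 were higher on arrays 1 and 2 than on 3 and 4, and Cybb, Nnt, Sod3 and Gpx3 lower, each without overlap. Adding a term for arrays numbered 1 or 2, chosen after seeing the data, left the same 6 of the 10 genes called in CXCR5-/- and the same 6 in WT.

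**Figure D5:**
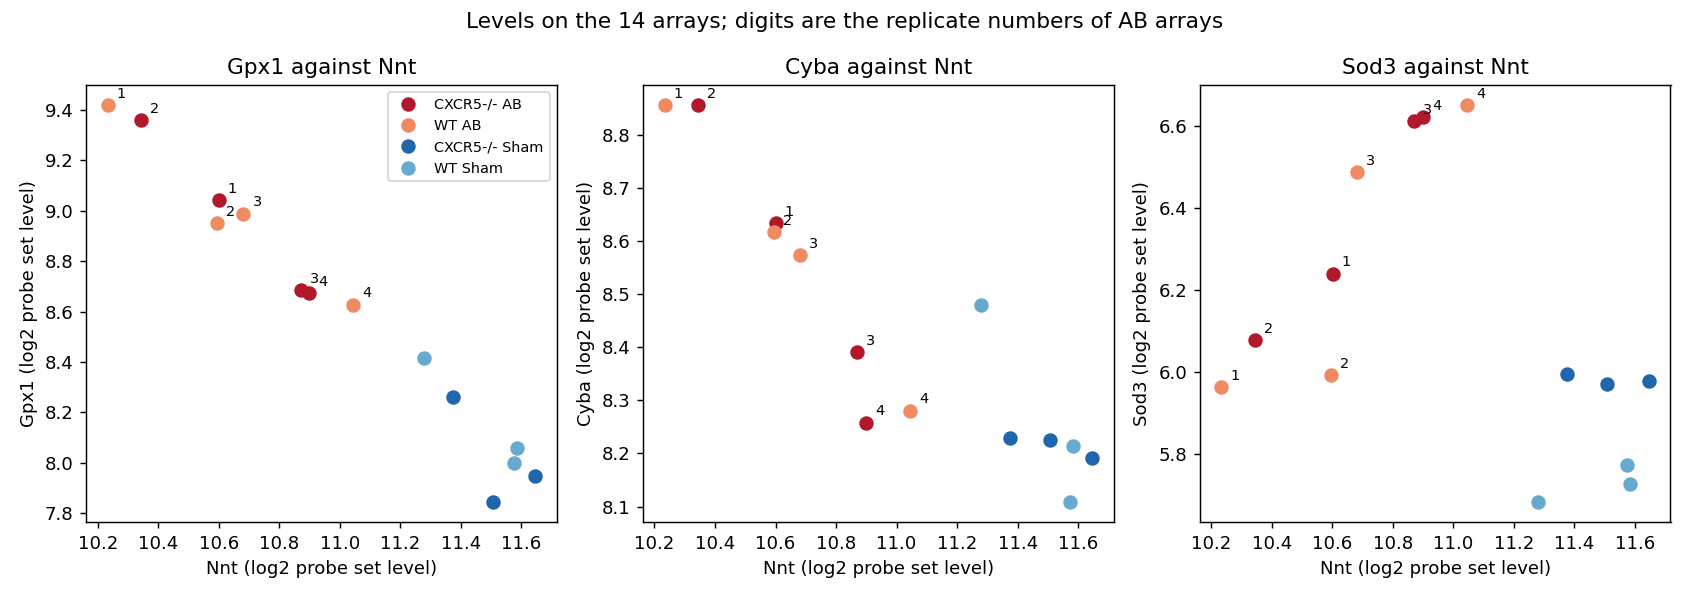
Log2 levels of Gpx1, Cyba and Sod3 (vertical axes) against Nnt (horizontal axes) on the 14 arrays, coloured by group, with the replicate number beside each AB array. Gpx1 is high where Nnt is low over AB and Sham arrays alike, whereas Sod3 is highest, at 6.49 to 6.65, on AB arrays 3 and 4 and lowest on WT Sham arrays.

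The genes whose levels were most like those of Nox4 over the 14 arrays were Fibin (r 0.992), Itgbl1 (0.991), Nucb2 (0.984), Mxra7 (0.983) and Mtpn (0.981). In deviations from group means they had an r of 0.907, 0.821, 0.880, 0.684 and 0.767 with Nox4. Itgbl1, an integrin beta-like protein, was higher by 2.18 in CXCR5-/- AB than CXCR5-/- Sham hearts and by 1.90 in WT AB than WT Sham hearts. Those most like Nnt were Pfkm, the muscle phosphofructokinase (r 0.990), Slc22a5, the carnitine transporter (0.989), Mfn1, a mitochondrial fusion protein (0.988), Dcaf11 (0.987) and Rab12 (0.984). In deviations their r with Nnt was 0.976, 0.968, 0.954, 0.949 and 0.954. Pfkm had a difference of -0.64 between CXCR5-/- AB and CXCR5-/- Sham hearts and of -0.61 between WT AB and WT Sham hearts.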

How the data were processed

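Left ventricular RNA of 14 mice was measured on 14 arrays, and each array took its group and replicate number from its label. The authors processed the arrays by RMA and deposited log2 values per probe set, which lay between 0.742 and 13.5. No source used here gave the background and summary settings. The RNA kit named in the labels differs from the one in the methods. Replicates are separate mice. Arrays have no read depth, and their number limits the precision.

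The array table held 34760 probe sets. A single gene symbol was available for 21640 of them, 1321 carried several symbols and 11799 had no entry, and only the first kind named a gene. Symbols were updated through RefSeq (GRCm38.p6), which 21553 matched. Of 19937 genes, 954 had several probe sets and took the one with the highest mean. No pair of arrays shared over 47 identical values.

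All comparisons came from limma 3.58.1 (lmFit, eBayes; R 4.3.3) in 1 fit of 4 group means (10 residual and 7.13 prior degrees of freedom), with Benjamini-Hochberg adjustment over all genes and a threshold of 0.05. Dim probe sets were kept. Significance analysis of microarrays, which the methods name without settings, was an alternative with all distinct permutations. The steps were run on simulated data with noise drawn separately for each gene and array. Such data lack the deviations shared between genes that these arrays show.

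The members and gene lists were chosen with earlier results of these data known. Named genes are the 10 members, up to 4 further genes of a list that passed an AB comparison by the smallest adjusted p over the mean of genotypes (the gene with the smallest p where none passed), and the 5 genes most like Nox4 and Nnt by Pearson's r. For marker lists not all of these were printed.

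Deviations from group means of same-numbered CXCR5-/- AB and WT AB arrays had an r of 0.125, 0.22, 0.157 and 0.185 across genes. Of differently numbered pairs, CXCR5-/- AB 2 with WT AB 1 reached 0.456 and CXCR5-/- AB 3 with WT AB 4 reached 0.419. Another, CXCR5-/- AB 2 with WT AB 4, fell to -0.417. These correlations do not single out same-numbered pairs, and no source gives the numbers a meaning. Among same-numbered pairs of AB with Sham arrays the r was negative in some.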

Additional observations from a re-analysis of the deposited data

Results flagged for a closer look

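Of 122 groups of 4 arrays, over 61 genes named by rule, 1 held an array far from the other 3, where chance gives about 1 in 20. Ncf1 on WT AB array 4 was at 6.29, against 6.53 to 6.56 on the other WT AB arrays. Its gap to the nearest of them was 0.882 of the whole range, above the critical value of 0.829. It remained above all Sham arrays.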

How the results depend on the processing

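Each comparison was repeated, as far as a setting applies to it, with other variance models, array weights, a filter at the 30th percentile, quantile normalization, median centring, averaged probe sets of a gene, every probe set of the array, the compared groups alone, significance analysis of microarrays, an atrial covariate, the replicate block and leaving out single arrays. The compared groups alone and significance analysis of microarrays were run for the 4 comparisons of 2 groups, and not for the difference of the AB responses or the means over genotypes or operations. The count of redox genes called stayed within 1.5 times its main value in all of them except for AB in CXCR5-/-, where leaving out the 3 Sham arrays rich in atrial transcripts gave 3 genes (Nox4, Gpx1 and Gpx3) with 1 CXCR5-/- Sham array left. The difference of Nnt between CXCR5-/- and WT after Sham changed sign with array weights (-0.0215), without these 3 Sham arrays (-0.0724) and over the fits without 1 array (-0.0698 to 0.0979), and after AB it ran from -0.0946 to 0.176 over the fits without 1 array. The cause was not tested.

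With the replicate block 7 redox genes were called for AB in CXCR5-/- and 7 in WT, Cyba joining in both (0.42, adjusted p = 0.0158, and 0.41, adjusted p = 0.0221, with limma), and 10 over the mean of genotypes, Cat joining (-0.22). It changed no other call of these 10 genes. Over all genes the block called 2027 higher and 1596 lower in CXCR5-/-, against 1650 and 1168 without it. In WT it called 1354 higher and 1282 lower, against 1016 and 842. Over the mean of genotypes it called 2837 higher and 2451 lower, against 2460 and 2079. Array weights called 8 in either AB comparison. Over all genes the calls for AB numbered 2818 in CXCR5-/- and 1858 in WT, against 4770 and 3408 with array weights, 3905 and 1874 with significance analysis of microarrays, and 844 in CXCR5-/- without the 3 Sham arrays. Without single arrays they ran from 1890 to 3028 in CXCR5-/- and from 1002 (without WT Sham array 3; 1025 without WT Sham array 2) to 2120 in WT. Calls between genotypes over all genes numbered 9 after AB (4 with the compared groups alone, 21 with the replicate block, 5 without the 3 Sham arrays, 4 to 34 without single arrays), 8 after Sham (39 with array weights, 5 with every probe set, 1 without the 3 Sham arrays, 3 to 8 without single arrays) and 19 over the mean of operations (48 with array weights, 6 without the 3 Sham arrays, 11 to 23 without single arrays), and the 10 redox genes gave 0 calls in each of these fits. Sod3 in WT missed the threshold under 6 settings other than leaving out an array, with an adjusted p up to 0.137.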
